A study of Mus musculus with 3 samples.

Results

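Astrocyte nuclei were examined in 3 single-nucleus RNA-seq (snRNA-seq) libraries of mouse prefrontal cortex (PFC). A nucleus was kept when it had 200 genes or more and a mitochondrial share of counts under 10%, and kept nuclei were then chosen by their own counts, given as unique molecular identifiers (UMIs, which mark single captured RNA molecules). A chosen nucleus had at least 3 UMIs summed over *Aqp4*, *Slc1a3*, *Slc7a10* and *Gja1*, with at least 2 of them in *Aqp4*, *Slc1a3* and *Slc7a10*. It had no UMI of the neuronal genes *Slc17a7*, *Gad1* and *Gad2*, none of the myelin genes *Mog* and *Mag*, and at most 1 of *Apod*. This rule chose 1064 of 43464 kept nuclei, which were 235 of 14630 in the C57BL/6 library, 448 of 14056 in the *Nav1* KO library and 381 of 14778 in the BTBR library.

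The C57BL/6 library was made from the pooled PFC of 5 wild-type mice. The *Nav1* KO library was made from 4 pooled mice of the same strain that are homozygous for a CRISPR deletion in *Nav1* (neuron navigator 1). The BTBR library came from the inbred strain BTBR T<+> Itpr3<tf>/J, and how many mice it pooled is not given in the sources used here. All mice were male and 6 to 8 weeks old, and the labels name no treatment. For the C57BL/6 and *Nav1* KO libraries, the methods of the study give a sort in which nuclei stained and unstained for the neuronal protein NeuN were collected in a set proportion, so a share of nuclei also follows the sort. How the BTBR nuclei were sorted is not given in the sources used here. The labels call the cell type neurons. With 1 library per group no test between groups was possible, and parentheses hold exact 95% intervals for counting error alone. Genotype, strain, pool and library preparation cannot be told apart in these comparisons.

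Astrocytes are the glial cells that take up glutamate and potassium released by neurons, supply neurons with lipids and metabolic fuel, and wrap synapses and blood vessels. *Slc1a3* encodes the glutamate transporter GLAST, *Aqp4* a water channel of the endfeet at vessels, *Gja1* connexin 43 of their gap junctions and *Slc7a10* a transporter of small neutral amino acids. In the cortex they differ by layer, with *Gfap* mostly in cells next to the pia and the white matter.

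The chosen nuclei held 407277 counts in C57BL/6, 931879 in *Nav1* KO and 736178 in BTBR. Their median depth was 1369, 1830.5 and 1709 UMIs per nucleus, against 2074, 2754 and 2510.5 UMIs over all kept nuclei of the same libraries. The C57BL/6 nuclei were the shallowest and the *Nav1* KO nuclei the deepest. The libraries shared 55 to 66 barcodes per pair among kept nuclei, and 0 among the chosen nuclei.

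The rule did not gather 1 kind of nucleus. Clustering of the 1064 nuclei gave 5 sub-clusters, and their levels are given as CPM (a gene's counts scaled to 1000000 counts of the nuclei concerned). Sub-cluster 0, with 399 nuclei, was led by *Gfap*, *Dbi*, *Ednrb* and *Aqp4*, and sub-cluster 3, with 233 nuclei, by *Glyctk*, *Emx2*, *Grm3* and *Slc25a18*. A list of 28 astrocyte markers, 4 of which chose the nuclei, summed to 33305 CPM in sub-cluster 0 and 24575 CPM in sub-cluster 3, against 21252, 19532 and 12830 CPM in sub-clusters 2, 4 and 1. Its median gene was at 1.72 and 1.13 times the level of the other chosen nuclei in sub-clusters 0 and 3, and below 1 in the rest. No gene of the list was among the 10 leading genes of sub-cluster 3, so its name rests on a small difference. These 632 nuclei are called astrocyte-led here, 137 of them in C57BL/6, 283 in *Nav1* KO and 212 in BTBR. Their mix differed between libraries, with sub-cluster 0 giving 63 of the 137, 204 of the 283 and 132 of the 212. *Glyctk* led sub-cluster 3 through the BTBR library, which held 59 of its counts there against 4 in C57BL/6 and 5 in *Nav1* KO.

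In the other sub-clusters the data went against the label. The 222 nuclei of sub-cluster 2 were led by *Slc22a8*, *Foxd1* and *Slc13a4*, and the meningeal fibroblast list summed to 3007 CPM there against 141 CPM in sub-cluster 0. Of them, 198 had 2 or more UMIs of fibroblast genes. Endothelial genes were also raised there, with *Flt1* among the 10 leading genes and the endothelial list at 583 CPM against 19.0 CPM in sub-cluster 0. The median gene of that list was at 8.05 times the level of the other chosen nuclei, against 8.79 times for the fibroblast list. With 20 principal components, a sub-cluster of 226 nuclei with much the same leading genes was led by the endothelial list. The 54 nuclei of sub-cluster 4 were led by *C1qa*, *Ctss*, *Csf1r* and *Cx3cr1*, with the microglia list at 5475 CPM against 60.04 CPM in sub-cluster 0, and 53 of them had 2 or more microglial UMIs. Of these 54 nuclei 41 were in the BTBR library, 10 in *Nav1* KO and 3 in C57BL/6. The 156 nuclei of sub-cluster 1 were led by *Cntnap5a* and *Tenm1*, genes of neurons, and *Pcdh15*, which is also a gene of oligodendrocyte precursors. The list of all neurons was at 15790 CPM there and that of precursors at 669 CPM, against 3238 and 198 CPM in sub-cluster 0, and 37.8% of these nuclei were among the 10% highest doublet scores of their library. Nuclei of sub-clusters 2 and 4 often met the rule without *Aqp4* and *Slc7a10*, through at least 2 UMIs of *Slc1a3*: 52.3% (45.5–59.0) of sub-cluster 2 and 72.2% (58.4–83.5) of sub-cluster 4 had no UMI of *Aqp4* or *Slc7a10*, against 24.8% (20.6–29.4) of sub-cluster 0. Levels are therefore given over all chosen nuclei and, where it bears on the value, over the astrocyte-led nuclei.

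**Figure D1:**
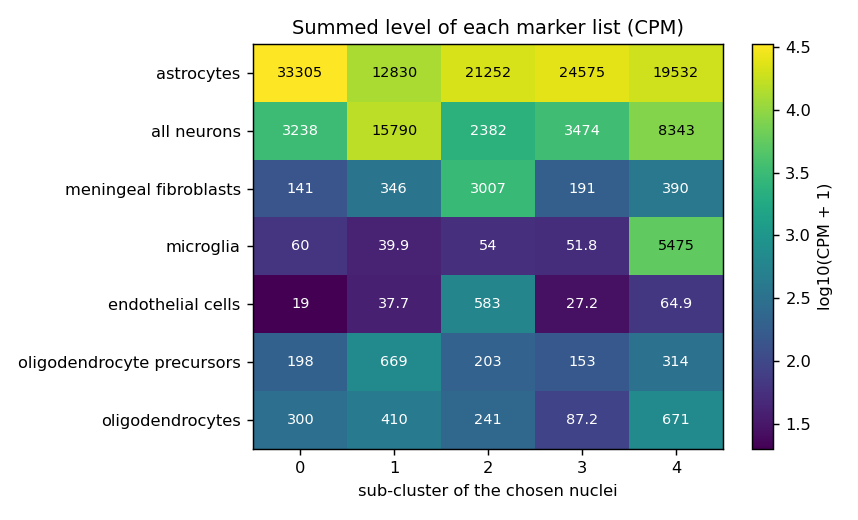
Summed level in CPM of each marker list (rows) in the 5 sub-clusters of the 1064 chosen nuclei (columns), with the colour on a log10(CPM + 1) scale and the CPM printed in each cell. The astrocyte list is highest in sub-cluster 0 at 33305 CPM, the fibroblast list in sub-cluster 2 at 3007 CPM and the microglia list in sub-cluster 4 at 5475 CPM.

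The levels of the marker genes, which chose the nuclei, are a description. *Slc1a3* was at 1844 CPM in C57BL/6, 1817 CPM in *Nav1* KO and 1794 CPM in BTBR, and 97.0%, 98.2% and 97.4% of the chosen nuclei had a UMI of it. *Gja1* was at 439.5, 468 and 547 CPM and *Slc7a10* at 358, 347 and 489 CPM, both highest in BTBR. *Aqp4* was at 270.1, 354 and 308 CPM, highest in *Nav1* KO, and was found in 26.4%, 37.1% and 33.9% of nuclei. At the edge of the rule, 76, 85 and 95 nuclei had exactly 3 marker UMIs, and 89, 111 and 84 nuclei had 2 and met the other limits. The marker UMIs alone were met by 472 C57BL/6, 1278 *Nav1* KO and 1172 BTBR nuclei. The limit on *Slc17a7*, *Gad1* and *Gad2* then removed 43.0%, 52.0% and 59.7% of them, nuclei with medians of 4200, 4520 and 5025 UMIs. In all other kept nuclei, with medians of 2085, 2799 and 2541 UMIs, *Slc1a3* was found in 7.95%, 15.3% and 14.3% and *Aqp4* in 1.35%, 3.89% and 3.01%.

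The share of nuclei was lowest in C57BL/6. It was 1.61% (1.41–1.82) there, 3.19% (2.90–3.49) in *Nav1* KO and 2.58% (2.33–2.85) in BTBR, and the 3 intervals did not overlap. The *Nav1* KO share was 1.98 times (1.69–2.33) and the BTBR share 1.61 times (1.36–1.90) that of C57BL/6, and BTBR was at 0.809 times (0.704–0.929) *Nav1* KO. The same order held after every nucleus was thinned to 1000 UMIs and the rule applied anew, with 0.940%, 2.52% and 1.97% of the nuclei deep enough. Thinning left out 2394, 1249 and 2096 shallower nuclei. The astrocyte-led nuclei were 0.936%, 2.01% and 1.43% of the libraries, a ratio of 2.15 (1.75–2.66) for *Nav1* KO and 1.53 (1.23–1.91) for BTBR over C57BL/6. The part that the sort, the dissection and the pooling of mice have in these shares was not tested.

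**Figure D2:**
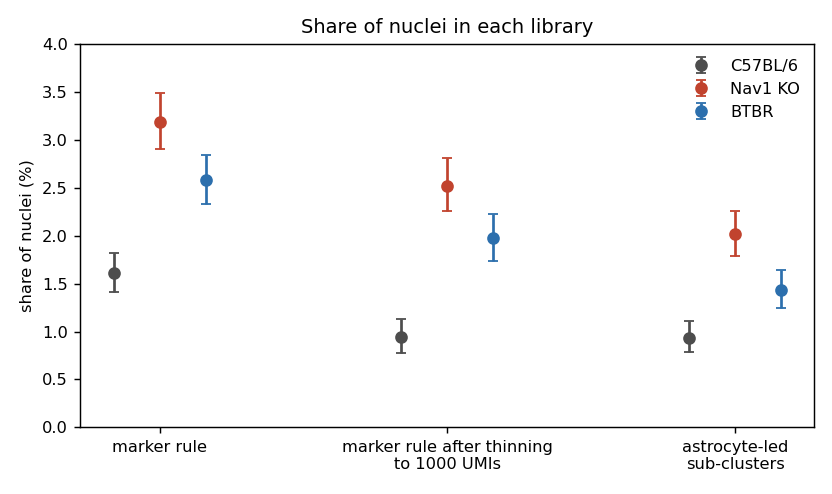
Share of kept nuclei (y axis, percent) chosen by the marker rule, by the rule after thinning to 1000 UMIs, and in the astrocyte-led sub-clusters, for each library. Bars are exact 95% Clopper-Pearson intervals; C57BL/6 is lowest (1.61%, 0.940% and 0.936%) and *Nav1* KO highest (3.19%, 2.52% and 2.01%) in all 3.

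The genes that set these nuclei apart from all other kept nuclei are a description, since marker counts chose the nuclei. The count took 3425 genes with a mean of at least 50 CPM over the chosen and the other nuclei. Of these, 142 were 4-fold or more higher in every library, or 4.15% of them, and 36 were 4-fold or more lower, or 1.05%. A gene rare in the other nuclei could meet the limit on the mean through the chosen nuclei. The counts and ranks therefore follow from that limit in part. The median gene was at 0.853, 0.851 and 0.856 times its level in the other nuclei. The chosen nuclei here include sub-clusters 1, 2 and 4, so the 142 genes are not all genes of astrocytes. Of 4 measured genes of the meningeal fibroblast list, 3 were 4-fold or more higher in every library. *Atp13a4*, which encodes a transport ATPase, had the highest fold, taken as its smallest value over the libraries. Its level was 155, 155 and 139.9 CPM in C57BL/6, *Nav1* KO and BTBR against 4.36, 5.36 and 6.87 CPM in the other nuclei, which is 35.5-fold (26.1–47.7), 28.8-fold (23.4–35.5) and 20.4-fold (16.2–25.5).

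*Dio2*, the deiodinase that activates thyroid hormone, was 28.7-fold, 19.5-fold and 16.6-fold higher than in the other nuclei. *Mertk*, a receptor with which astrocytes engulf synaptic material, was 30.4-fold, 18.01-fold and 16.5-fold higher. *S1pr1*, a receptor of sphingosine 1-phosphate, was 25.4-fold, 15.9-fold and 15.9-fold higher. In these genes the fold was highest in C57BL/6, where the other nuclei held the least: *Mertk* was at 260.3, 226 and 206 CPM in the chosen nuclei and at 8.56, 12.6 and 12.5 CPM in the others. The further 11 of the 15 genes with the highest fold were *Cbs* (cystathionine beta synthase), *Slco1c1* (a thyroid hormone transporter), *Ntsr2* (a neurotensin receptor), *Entpd2* (an ectonucleotidase), *Fgfr3* (a fibroblast growth factor receptor), *Tril*, *Nwd1*, *Daam2*, *Phkg1* (a subunit of phosphorylase kinase, which turns on glycogen breakdown), *Fam107a* and *Slc6a11* (the GABA transporter GAT3). *Slc6a11*, the last of them, was still 16.2-fold, 13.3-fold and 12.5-fold higher. *Atp13a4* (49.6-fold, 39.5-fold and 27.2-fold) and *Dio2* (44.9-fold, 26.7-fold and 23.6-fold) had larger folds in the astrocyte-led nuclei. These nuclei were chosen by clustering on expression in the same data, and *Atp13a4* was among the leading genes of sub-cluster 3. The larger fold of *Atp13a4* therefore follows from that choice in part. For *Dio2* the part of the choice was not tested.

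**Figure D3:**
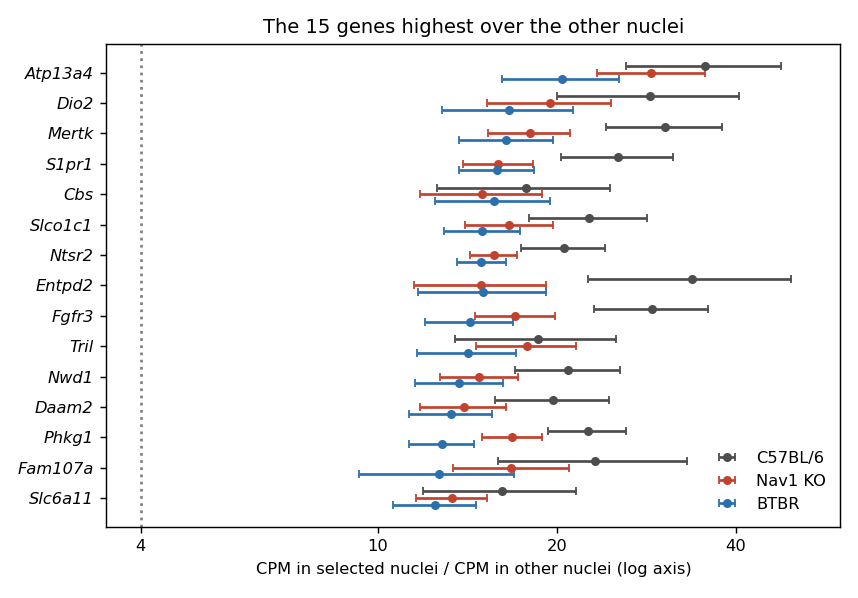
Level in the chosen nuclei divided by the level in all other kept nuclei (x axis, log scale) for the 15 genes with the highest fold (y axis), with exact 95% intervals for each library; the dotted line marks 4-fold. *Atp13a4* is at 35.5, 28.8 and 20.4 and *Slc6a11* at 16.2, 13.3 and 12.5.

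Among the lowest genes were neuronal channels and receptors. *Grin2a*, a subunit of NMDA receptors, was at 157, 121 and 139 CPM against 754, 625 and 684 CPM in the other nuclei, or 0.208 (0.161–0.266), 0.194 (0.1599–0.233) and 0.203 (0.165–0.246) times their level. Among the astrocyte-led nuclei it was at 0.0560, 0.134 and 0.0475 times. *Kctd16*, an auxiliary subunit of GABA-B receptors, was at 0.182, 0.141 and 0.166 times and *Lrfn5*, a synaptic adhesion protein, at 0.183, 0.156 and 0.183 times. *Rad51ap2*, *Kcnj6*, *Khdrbs2*, *Pak7* and *Sgcz* completed the 8 lowest.

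Promoters of the genes with the highest fold were read from RefSeq (GRCm38.p6), as 250 bases before to 50 bases after each listed start. Of the 15 genes 14 were found, with 19 promoters, and those of the first 3 genes are shown because they lead the list. Capitals mark matches on either strand to TTGGC (each arm of the nuclear factor I palindrome), ACAATG and ACAAAG (SOX factor cores), TGGGAA (RBPJ, the factor of Notch signaling) and TATAAA (the TATA box). The first line is at chr16:29541434-29541733 on the minus strand and is the first of 2 starts listed for its gene, the second is at chr12:90738989-90739288 on the minus strand and the third at chr2:128698665-128698964 on the plus strand.
Atp13a4: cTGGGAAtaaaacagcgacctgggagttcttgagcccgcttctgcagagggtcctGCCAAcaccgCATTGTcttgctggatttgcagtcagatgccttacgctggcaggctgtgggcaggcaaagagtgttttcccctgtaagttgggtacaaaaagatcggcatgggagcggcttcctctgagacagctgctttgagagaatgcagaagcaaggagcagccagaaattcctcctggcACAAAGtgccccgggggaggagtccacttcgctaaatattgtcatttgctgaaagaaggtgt
Dio2: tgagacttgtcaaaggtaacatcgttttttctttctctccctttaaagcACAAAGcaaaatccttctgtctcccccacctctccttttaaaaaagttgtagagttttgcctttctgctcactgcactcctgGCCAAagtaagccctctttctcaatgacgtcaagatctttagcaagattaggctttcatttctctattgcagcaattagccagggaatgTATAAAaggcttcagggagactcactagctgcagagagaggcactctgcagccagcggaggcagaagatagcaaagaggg
Mertk: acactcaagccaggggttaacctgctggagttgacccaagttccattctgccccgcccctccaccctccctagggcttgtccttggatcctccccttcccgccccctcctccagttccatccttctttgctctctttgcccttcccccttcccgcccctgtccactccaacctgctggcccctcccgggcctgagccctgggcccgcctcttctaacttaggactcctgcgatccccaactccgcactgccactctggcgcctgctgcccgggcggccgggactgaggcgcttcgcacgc

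*Atp13a4* held 4 of the 5 letter strings, *Dio2* held 3 of them with the TATA box included, and *Mertk* held none. TTGGC was found in 13 of the 19 promoters, which belong to 10 genes, and in 46.7% of all 32851 promoters of this length. ACAAAG was in 7 of 19 against 18.7% of all, TGGGAA in 6 of 19 against 25.6%, TATAAA in 2 of 19 against 13.6%, and ACAATG in 1 of 19 against 12.6%. By gene, ACAAAG and TGGGAA were each in 5 of 14. Some promoters of *Daam2* and of *Fam107a* overlap, so 1 match can count for 2 promoters. The full nuclear factor I palindrome, which contains TTGGC, was in 0 of 19 and in 0.037% of all promoters. A match is a run of letters and not a measured site.

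The 14 lists of genes by role also differed in how many members stood above the other nuclei by 4-fold or more in every library, against 4.15% of all genes. *Slc1a3*, *Aqp4* and *Gja1*, which chose the nuclei, were left out of these counts. Members rare in the other nuclei could meet the limit on the mean through the chosen nuclei, so these counts follow from it in part. The count was 5 of 8 measured genes of glutamate uptake and recycling, 4 of 8 of potassium, water and ion balance, 6 of 15 of lipid transport and cholesterol synthesis, 9 of 19 transcription factors, 8 of 13 of Notch, FGF, BMP and Wnt signaling and 5 of 7 genes that mark the position of astrocytes in the forebrain. It was 1 of 6 for GABA and glycine, 1 of 5 for glucose, glycogen and lactate, 4 of 23 for adhesion and matrix, 6 of 19 for calcium and receptor signaling, 1 of 2 for connexins, 1 of 9 for glucocorticoid, circadian and immediate early genes and 0 of 1 for histocompatibility and complement. No gene of reactive astrocytes was measured in this comparison. No measured member of these lists was 4-fold lower. The Notch, FGF, BMP and Wnt list was not particular to the chosen nuclei, where it summed to 3526, 4067 and 3888 CPM. In the 52, 79 and 77 nuclei gated as oligodendrocyte precursors it summed to 3753, 4579 and 4239 CPM. Adhesion and matrix genes were not particular to the chosen nuclei either, at 10342, 10355 and 11107 CPM against 10487, 10749 and 11560 CPM in the precursors. Calcium and receptor signaling, reactive astrocytes and histocompatibility summed higher in the precursors in some libraries and lower in others. The lists of glutamate, ion balance, lipids, transcription factors and position summed lower in these precursors. Those of glutamate and ion balance include *Slc1a3* and *Aqp4*, which chose the nuclei, and the precursor gate allowed no UMI of *Aqp4*.

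Between libraries, a gene was counted when its levels differed by 1.5-fold or more, among genes with a mean of at least 50 CPM in the 2 libraries compared. For *Nav1* KO over C57BL/6 these were 233 of 3129 genes higher (7.45%) and 348 lower (11.1%), with a median ratio of 0.933, a shift of -0.10 on the log2 scale. For BTBR over C57BL/6 they were 299 of 3242 genes higher (9.22%) and 308 lower (9.5%), with a median of 0.991. For BTBR over *Nav1* KO they were 243 of 3176 genes higher (7.65%) and 143 lower (4.5%), with a median of 1.05. With scaling by the median of ratios instead of total counts, the share of these genes that were higher moved from 40.1% to 57.7% for *Nav1* KO over C57BL/6 and from 63.0% to 44.4% for BTBR over *Nav1* KO. In the astrocyte-led nuclei 10.7% were higher and 15.2% lower for *Nav1* KO over C57BL/6, 12.4% and 15.9% for BTBR over C57BL/6, and 10.4% and 8.28% for BTBR over *Nav1* KO. With no limit on neuronal genes, 139 of 3377 genes were higher and 152 lower for *Nav1* KO over C57BL/6. The counts were then 264 and 190 of 3479 for BTBR over C57BL/6, and 88 and 59 of 3445 for BTBR over *Nav1* KO. The 3 comparisons share libraries, so their values are given side by side only.

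RNA of other cells also differed between the libraries. The list of all neurons summed to 7670 CPM in the chosen nuclei of C57BL/6, 4830 CPM of *Nav1* KO and 6666 CPM of BTBR, mostly *Meg3* at 6701, 3943 and 5701 CPM. It summed to 3849, 2929 and 3570 CPM in the astrocyte-led nuclei and to 8556, 5973 and 8851 CPM in the 98, 68 and 64 nuclei chosen by the myelin genes *Mog* and *Mag*. *Pde10a* and *Penk*, markers of striatal medium spiny neurons, were among the 8 lowest ratios of *Nav1* KO over C57BL/6. *Pde10a* was at 277, 97.7 and 145 CPM, a *Nav1* KO ratio of 0.352 (0.264–0.468), and at 95.04, 77.3 and 62.3 CPM in the astrocyte-led nuclei. The *Nav1* KO ratio of *Penk* was 0.409 (0.238–0.701) and turned to 1.08 (0.367–3.83) in the astrocyte-led nuclei. The astrocyte list summed to 19861, 25675 and 23880 CPM, with *Apoe* its most abundant gene, and to 1779, 2834 and 2672 CPM in the other nuclei, so it was lowest in C57BL/6 in both. The part of this RNA in the ratios below was not tested, and the ratio in the other nuclei is given beside some of them only.

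Several genes that carry and make lipids were lower in C57BL/6. Of 17 measured members, 4 were past 1.5-fold higher in *Nav1* KO than in C57BL/6, against 7.45% of all genes, and none lower, with a median ratio of 1.22 against 0.933 over all genes. In BTBR 8 of 18 were higher than in C57BL/6, against 9.22% of all genes, and none lower, with a median of 1.45 against 0.991. *Lcat* in both counts, and *Cyp51* in that of BTBR, were under 50 CPM in C57BL/6. They met the limit on the mean through the other library, so these counts follow from the limit in part. In BTBR over *Nav1* KO 1 of 19 members was higher and none lower, near the 7.65% and 4.5% of all genes. The median there was 1.035 against 1.05. The counts higher in the astrocyte-led nuclei were 3 of 18 for *Nav1* KO and 10 of 21 for BTBR over C57BL/6. The shares of all genes higher there were 10.7% and 12.4%, so the *Nav1* KO count was then nearer to the background. In BTBR *Lrp4* was lower there, against 15.9% of all genes.

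*Apoe*, the main lipoprotein of astrocytes, was at 3965 CPM in C57BL/6, 5859 CPM in *Nav1* KO and 5878 CPM in BTBR. Both were 1.48 times C57BL/6 (1.40–1.56 and 1.40–1.57), against 2.15 and 1.95 times in the other nuclei. *Clu*, another lipoprotein, was at 479, 1044 and 918 CPM, 2.18 times (1.87–2.56) C57BL/6 in *Nav1* KO and 1.92 times (1.63–2.26) in BTBR. C57BL/6 was lowest in both genes, with intervals apart from the other libraries. The *Clu* ratios in the astrocyte-led nuclei were 2.17 (1.78–2.68) and 2.13 (1.73–2.64), and in the other nuclei 1.75 and 1.81. The ratio depended on the sub-cluster for *Apoe*: *Nav1* KO was at 1.25 times (1.15–1.36) C57BL/6 in sub-cluster 0 and at 0.944 times (0.822–1.09) in sub-cluster 3, while *Clu* was at 1.83 times (1.45–2.35) and 1.59 times (1.04–2.48).

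*Scd2*, a desaturase of fatty acids, was at 282, 632 and 668 CPM, 2.24 times (1.83–2.76) and 2.37 times (1.93–2.93) C57BL/6. *Acsl3*, which activates fatty acids, was at 356, 547 and 576 CPM, 1.54 times (1.28–1.86) and 1.62 times (1.34–1.97). C57BL/6 was lowest in both, as it was in the other nuclei, where *Scd2* was at 1.63 and 1.59 times. *Lcat*, which esterifies cholesterol, was at 31.9, 99.8 and 74.7 CPM, 3.13 times (1.74–6.09) and 2.34 times (1.26–4.67), on few counts in C57BL/6, and in the astrocyte-led nuclei its ratios were 1.80 (0.953–3.69) and 1.54 (0.783–3.25). *Cyp51*, an enzyme of cholesterol synthesis, was at 49.1, 60.1 and 89.7 CPM, highest in BTBR. Its BTBR over C57BL/6 ratio was 1.83 (1.09–3.18), against 1.12 in the other nuclei.

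**Figure D4:**
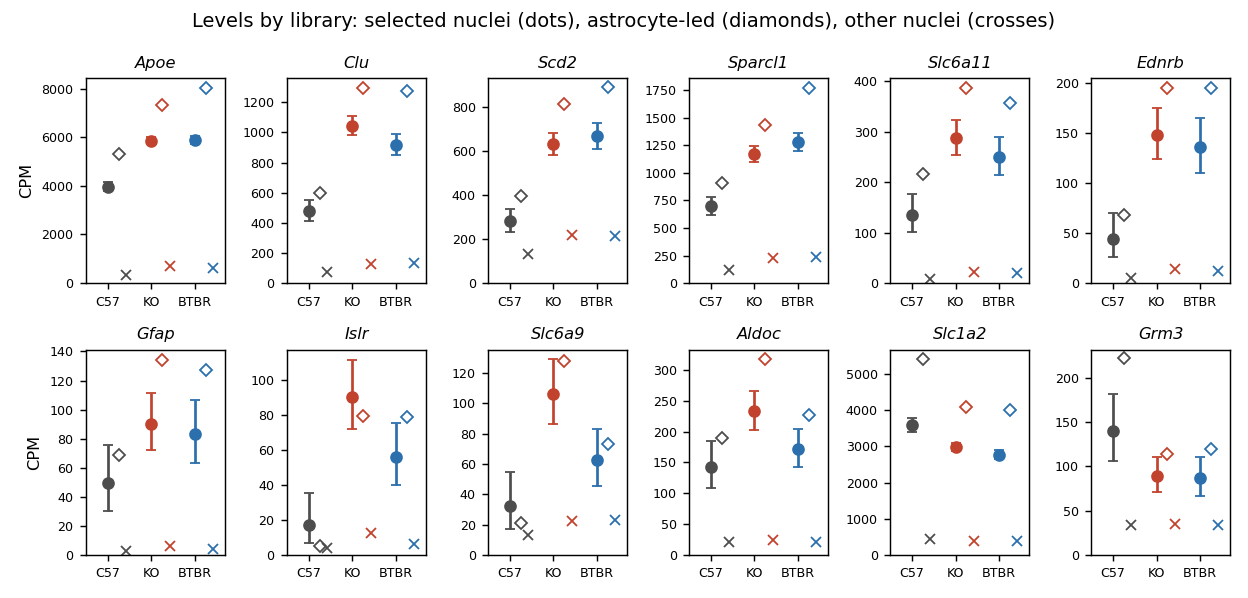
Level (y axis, CPM, a scale of its own in each panel) of 12 genes in the C57BL/6, *Nav1* KO and BTBR libraries (x axis). Dots with exact 95% Poisson intervals are all chosen nuclei, diamonds the astrocyte-led nuclei and crosses all other nuclei; *Clu* (479, 1044 and 918 CPM) and *Ednrb* (44.2, 148 and 136 CPM) are lowest in C57BL/6, *Slc1a2* (3585, 2982 and 2768 CPM) highest.

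Glutamate uptake was led by *Slc1a2*, which encodes the transporter GLT-1. It was at 3585, 2982 and 2768 CPM, highest in C57BL/6, at 0.832 times (0.781–0.887) in *Nav1* KO and 0.772 times (0.722–0.827) in BTBR, within 1.5-fold. In the other nuclei it was at 0.822 and 0.837 times. *Glul*, glutamine synthetase, was at 292, 379.9 and 428 CPM, lowest in C57BL/6 and within 1.5-fold. *Slc7a11*, the cystine and glutamate exchanger, was at 1046, 797 and 712 CPM, and most abundant in sub-cluster 2, at 1946 CPM against 499 CPM in sub-cluster 0. In the astrocyte-led nuclei it was at 612, 503 and 501 CPM, with ratios to C57BL/6 of 0.821 (0.656–1.03) and 0.818 (0.645–1.04) that cannot be set apart from 1 at this depth, and in the other nuclei it was at 1.78 and 1.501 times. Of 8 measured members of this list, *Slc38a1*, a glutamine transporter, was past 1.5-fold higher in *Nav1* KO (113, 182 and 106 CPM) and *Glud1*, glutamate dehydrogenase, in BTBR (118, 155 and 182 CPM), which is near the 7.45% and 9.22% of all genes. *Slc38a3*, the glutamine exporter, was at 162, 232 and 151 CPM, highest in *Nav1* KO, with BTBR at 0.650 times (0.513–0.822) *Nav1* KO. Median ratios of the list were 1.07 for *Nav1* KO and 0.851 for BTBR over C57BL/6, against 0.933 and 0.991 over all genes.

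The metabotropic glutamate receptors *Grm3* and *Grm5*, of the same 8 members, were past 1.5-fold lower in both than in C57BL/6, against 11.1% of all genes for *Nav1* KO and 9.5% for BTBR. *Grm3* was at 139.9, 89.1 and 86.9 CPM, at 0.636 times (0.449–0.908) and 0.621 times (0.428–0.904), and its ratios in the other nuclei were 1.01 and 0.996. In the astrocyte-led nuclei they were 0.514 (0.338–0.786) and 0.537 (0.344–0.841), and within sub-cluster 3, which it helped to lead, 0.417 (0.215–0.784) and 0.575 (0.318–1.03). *Grm5* was at 219, 138 and 129 CPM, but in the astrocyte-led nuclei its direction turned, to 1.11 (0.602–2.14) and 1.06 (0.555–2.11), which left 1 of 8 lower there, against 15.2% and 15.9% of all genes.

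Of the GABA and glycine genes, *Slc6a11* was at 135, 288 and 250 CPM, 2.13 times (1.59–2.90) and 1.85 times (1.36–2.55) C57BL/6, and 2.58 and 2.40 times in the other nuclei. *Slc6a9*, the glycine transporter GLYT1, was at 31.9, 106 and 62.5 CPM, 3.33 times (1.86–6.47) in *Nav1* KO and 1.96 times (1.04–3.95) in BTBR, and the *Nav1* KO ratio was 6.07 (2.26–22.97) in the astrocyte-led nuclei, on 4 counts in C57BL/6. C57BL/6 was thus lowest for both transporters. *Gabbr2*, a GABA-B receptor subunit, was at 98.2, 61.2 and 59.8 CPM, highest in C57BL/6, with ratios of 0.623 (0.408–0.958) and 0.609 (0.388–0.958). These 3 were the members past 1.5-fold of 8 measured for *Nav1* KO, and *Slc6a11* and *Gabbr2* of 7 for BTBR. *Slc6a9* was under 50 CPM in C57BL/6 and met the limit on the mean through *Nav1* KO. Over all genes 7.45% were higher and 11.1% lower for *Nav1* KO, and 9.22% and 9.5% for BTBR.

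Ion balance had 2 members past 1.5-fold of 9 measured for *Nav1* KO and of 10 for BTBR over C57BL/6, both higher, against 7.45% and 9.22% of all genes. *Clcn2*, a chloride channel, was at 76.1, 171 and 168 CPM, 2.24 times (1.52–3.41) and 2.21 times (1.48–3.40), and *Mlc1*, a membrane protein of the endfeet, at 61.4, 112 and 93.7 CPM. The other nuclei had *Clcn2* ratios of 1.90 and 1.96, and the astrocyte-led nuclei 6.84 (2.56–25.8) and 4.62 (1.65–17.9), on 4 counts in C57BL/6. The *Nav1* KO ratio of *Mlc1* was 1.82 (1.17–2.94), and 1.38 (0.8198–2.43) in the astrocyte-led nuclei, and with no limit on neuronal genes its BTBR over C57BL/6 ratio turned to 0.995. In the astrocyte-led nuclei *Kcnj10*, *Clcn2* and *Kcnk2* of 10 measured were past 1.5-fold higher in *Nav1* KO, against 10.7% of all genes. In BTBR *Kcnj10*, *Clcn2* and *Mlc1* of 11 were higher there, against 12.4%. *Clcn2* was under 50 CPM in these C57BL/6 nuclei and met the limit on the mean through the other library. *Dtna*, which anchors endfoot proteins, was at 825, 721 and 561 CPM, lowest in BTBR. Of the connexins, *Gjb6* (connexin 30) was at 139.9, 165 and 102 CPM, lowest in BTBR, with a ratio of 0.616 (0.461–0.818) to *Nav1* KO, 0.803 (0.501–1.27) in the astrocyte-led nuclei and 0.587 in the others. *Tjp1*, a scaffold of cell junctions, was at 66.3, 81.6 and 113 CPM, with BTBR at 1.70 times (1.09–2.73) C57BL/6, which turned to 0.972 times with no limit on neuronal genes.

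Of 6 measured genes of glucose, glycogen and lactate, 3 were past 1.5-fold higher in *Nav1* KO and 2 in BTBR than in C57BL/6, against 7.45% and 9.22% of all genes. *Aldoc*, the aldolase of astrocytes, was at 142, 233 and 171 CPM, 1.64 times (1.22–2.22) in *Nav1* KO, and 1.15 times in the other nuclei, but with no limit on neuronal genes the ratio turned to 0.952. *Gapdh* was at 106, 184 and 174 CPM and *Pkm*, pyruvate kinase, at 61.4, 98.7 and 93.7 CPM, both glycolytic enzymes lowest in C57BL/6. In the astrocyte-led nuclei 2 of 6 were past 1.5-fold higher in *Nav1* KO (*Aldoc* and *Gapdh*) and 1 of 6 in BTBR (*Pkm*), against 10.7% and 12.4% of all genes. The list medians were 1.47 and 1.27 over all chosen nuclei, and 1.32 and 1.22 over the astrocyte-led nuclei.

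Of 22 measured transcription factors of astrocytes, *Sox2* and *Id1* were past 1.5-fold in *Nav1* KO, both higher, and *Sox5* and *Id4* in BTBR, both lower, with list medians of 0.992 and 0.9504 over C57BL/6. Over all genes 7.45% were higher in *Nav1* KO and 9.5% lower in BTBR, and the counts of this list are near them. *Sox2*, a factor of neural precursors and glia, was at 192, 328 and 245 CPM, and its *Nav1* KO ratio was 1.71 (1.33–2.23) over all chosen nuclei and 1.45 (1.07–2.01) over the astrocyte-led nuclei. *Id4*, an inhibitor of helix-loop-helix factors, was at 228, 285 and 91.0 CPM, at 0.399 times (0.287–0.552) C57BL/6 and 0.319 times (0.240–0.418) *Nav1* KO in BTBR. Its BTBR interval lay apart from the other libraries, and in the other nuclei it was at 0.502 and 0.486 times. *Id1* was at 54.0, 95.5 and 73.4 CPM, and in the astrocyte-led nuclei its *Nav1* KO ratio turned from 1.77 (1.10–2.96) to 0.892 (0.484–1.72). Other factors were past the limit there, *Lhx2* and *Nr1d2* of 21 higher in *Nav1* KO, against 10.7% of all genes, and in BTBR *Emx2* and *Nr1d2* of 22 higher, against 12.4%, and *Sox5*, *Sox6*, *Nfia*, *Nfix* and *Id4* lower, against 15.9%. *Zbtb20* was at 1277, 1233 and 1001 CPM and *Rorb* at 773, 728 and 669.7 CPM, the highest levels in C57BL/6.

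In Notch, FGF, BMP and Wnt signaling, 3 of 16 measured genes were past 1.5-fold higher in *Nav1* KO (*Notch2*, *Bmpr1a* and *Fzd2*) and 3 of 16 in BTBR (*Fgf1*, *Fzd2* and *Tgfbr1*), against 7.45% and 9.22% of all genes, and none lower. *Notch2*, a Notch receptor, was at 68.7, 131 and 65.2 CPM, 1.90 times (1.25–2.98) C57BL/6 in *Nav1* KO, and BTBR was at 0.498 times (0.349–0.701) *Nav1* KO. *Fgf1*, a growth factor, was at 66.3, 98.7 and 141 CPM, 2.13 times (1.38–3.39) C57BL/6 in BTBR, against 0.817 times in the other nuclei. *Fzd2*, a Wnt receptor, was at 88.4, 146 and 175 CPM, and *Hes5*, a target of Notch, at 299.6, 389.5 and 408 CPM, each lowest in C57BL/6, with the *Nav1* KO ratio of *Fzd2* at 1.65 over all chosen nuclei and 1.14 (0.709–1.89) over the astrocyte-led nuclei. *Tgfbr1* was at 39.3, 40.8 and 97.8 CPM, so it met the limit on the mean through BTBR. In the astrocyte-led nuclei its BTBR over C57BL/6 ratio was 1.71 (0.440–9.67) in place of 2.49 (1.43–4.59). It was at 573.5 CPM in sub-cluster 4, led by microglial genes and mostly of BTBR nuclei, against 23.4 CPM in sub-cluster 0, and its ratio turned to 0.996 with a UMI of *Aqp4* or *Slc7a10* required.

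Adhesion and matrix had 2 of 24 measured genes past 1.5-fold higher in *Nav1* KO (*Sparcl1* and *Sparc*) and 3 of 24 in BTBR (*Sparcl1*, *Ncan* and *Mfge8*). These counts are near the 7.45% and 9.22% of all genes. *Sparc* was under 50 CPM in C57BL/6 and met the limit on the mean through *Nav1* KO. *Sparcl1*, hevin, a secreted protein that promotes synapses, was at 697, 1168 and 1276 CPM, 1.67 times (1.47–1.91) and 1.83 times (1.60–2.10) C57BL/6, and 1.96 and 2.01 times in the other nuclei. *Mfge8*, a bridge between cells and the debris they engulf, was at 250.4, 303 and 394 CPM, highest in BTBR. The list medians were 1.04 for both.

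Of the receptors, *Ednrb*, the endothelin B receptor, was at 44.2 CPM in C57BL/6, 148 CPM in *Nav1* KO and 136 CPM in BTBR. The ratios to C57BL/6 were 3.35 (2.04–5.82) and 3.07 (1.85–5.40), 2.85 (1.59–5.54) and 2.84 (1.56–5.59) in the astrocyte-led nuclei, and 2.73 and 2.37 in the other nuclei. Within sub-cluster 0, which it helped to lead, *Ednrb* was at 119, 231 and 263 CPM, with ratios of 1.94 (1.03–4.04) and 2.21 (1.16–4.66). C57BL/6 was the low library, with an interval apart from the others. *Gpr37l1*, a receptor for prosaposin, was at 253, 419 and 482 CPM and *Ntsr2* at 457, 654 and 735 CPM, also lowest in C57BL/6. *Itpr1*, a calcium release channel of the endoplasmic reticulum found mostly in neurons, was at 147, 78.3 and 63.8 CPM, at 0.532 times (0.373–0.761) and 0.433 times (0.289–0.646), and 0.680 and 0.637 times in the other nuclei. *Adcy2*, an adenylyl cyclase, was at 29.5, 37.6 and 70.6 CPM, highest in BTBR. In all, 2 of 13 measured genes of calcium and receptor signaling were higher and 1 lower in *Nav1* KO. In BTBR 4 of 14 were higher and 2 lower. Of those higher, *Ednrb* in both and *Adcy2* in BTBR were under 50 CPM in C57BL/6 and met the limit on the mean through the other library. Over all genes 7.45% were higher and 11.1% lower in *Nav1* KO, and 9.22% and 9.5% in BTBR, so the lower counts are near that background.

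Few genes of reactive astrocytes reached 50 CPM, 4 of 36 for *Nav1* KO and 3 for BTBR over C57BL/6. *Gfap* and *Sphk1* were past 1.5-fold higher in *Nav1* KO, against 7.45% of all genes. In BTBR *Gfap* was higher and *C4b* lower, against 9.22% and 9.5%. *Gfap* and *Sphk1* were under 50 CPM in C57BL/6 and *C4b* in BTBR, so each met the limit on the mean through the other library. *Sphk1*, a sphingosine kinase, was at 34.4, 67.6 and 58.4 CPM and most abundant in the fibroblast-led sub-cluster 2, at 158 CPM against 42.5 CPM in sub-cluster 0, and it had no count in the astrocyte-led nuclei of C57BL/6, which allows up to 15.8 CPM. *Gfap*, a filament protein, was at 49.1, 90.1 and 82.9 CPM, 1.84 times (1.12–3.16) and 1.69 times (1.00–2.95) C57BL/6. Within sub-cluster 0, which it led, *Gfap* was at 141, 172 and 169.8 CPM, a *Nav1* KO ratio of 1.22 (0.664–2.43) that cannot be set apart from 1 at this depth. *C4b*, a complement gene, was at 81.0, 95.5 and 32.6 CPM, lowest in BTBR, at 0.402 times (0.228–0.702) C57BL/6 and 0.341 times (0.208–0.541) *Nav1* KO. Its ratios in the other nuclei were 0.843 and 0.359. *H2-K1*, a class I histocompatibility gene, was at 61.4, 83.7 and 76.1 CPM, within 1.5-fold.

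Of the genes that mark the position of astrocytes, *Islr* was at 17.2, 90.1 and 55.7 CPM, 5.24 times (2.44–13.4) C57BL/6 in *Nav1* KO, the highest ratio of that comparison, with 1 count in the astrocyte-led nuclei of C57BL/6. *Unc13c* was at 214, 105 and 169.8 CPM, at 0.492 times (0.365–0.665) in *Nav1* KO, and 0.665 times in the other nuclei. These 2 genes went opposite ways. Of 13 measured members 5 were higher in *Nav1* KO than in C57BL/6 (*Gfap*, *Islr*, *Sparc*, *Slc6a11* and *Itih3*), against 7.45% of all genes, and 1 lower, against 11.1%. All of the 5 but *Slc6a11* were under 50 CPM in C57BL/6 and met the limit on the mean through *Nav1* KO. In BTBR 3 of 10 were higher (*Gfap*, *Mfge8* and *Slc6a11*), against 9.22%. There *Gfap* met that limit through BTBR. *Sparc*, a matrix protein, was at 29.5, 104 and 65.2 CPM, but over the astrocyte-led nuclei BTBR was at 0.513 times (0.0687–3.83) C57BL/6, with 3 counts in each. Its mean in BTBR and C57BL/6 was under 50 CPM, so it was not counted in that comparison.

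Among circadian, glucocorticoid and immediate early genes, *Mt3*, a metal-binding protein of the brain, was at 142, 311 and 62.5 CPM. *Nav1* KO was at 2.19 times (1.64–2.95) and BTBR at 0.439 times (0.291–0.657) C57BL/6, and 1 *Nav1* KO nucleus held 38 UMIs of it. The order was the same in the other nuclei, at 1.47 and 0.422 times. *Jun* was at 34.4, 104 and 84.2 CPM, lowest in C57BL/6, with a *Nav1* KO ratio of 3.03 over all chosen nuclei and 1.81 (0.904–4.02) over the astrocyte-led nuclei, and *Per3*, a clock gene, at 324, 324 and 216 CPM, lowest in BTBR. *Dbp*, an output gene of the clock, was at 78.6, 86.9 and 136 CPM, highest in BTBR. *Mt1*, another metal-binding protein, was at 358, 353 and 253 CPM, within 1.5-fold. In all, 2 of 10 measured genes were higher and 1 lower in *Nav1* KO than in C57BL/6, against 7.45% and 11.1% of all genes. In BTBR 3 of 11 were higher and 2 lower than in C57BL/6, against 9.22% and 9.5%. *Jun*, higher in both, was under 50 CPM in C57BL/6 and met the limit on the mean through the other library.

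*Cst3*, which encodes the protease inhibitor cystatin C, stood out beyond the rule for named genes, and was picked after its values were seen. It was at 1446, 3543 and 2460 CPM, 2.45 times (2.24–2.68) C57BL/6 in *Nav1* KO and 1.70 times (1.55–1.87) in BTBR. The 3 libraries were apart by their intervals, with *Nav1* KO highest. In the astrocyte-led nuclei it was at 1959, 4554 and 2381 CPM, so that BTBR was then near C57BL/6. In the other nuclei it was at 219, 438 and 354 CPM. By sub-cluster, *Cst3* was highest at 7704 CPM in sub-cluster 4, led by microglial genes and mostly of BTBR nuclei. It was at 4229 CPM in sub-cluster 0 and 1632 CPM in sub-cluster 3, whose mix differed between libraries. The part of this mix in its ratios was not tested.

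The 8 highest ratios of *Nav1* KO over C57BL/6 were those of *Islr*, *Sparc*, *Ednrb*, *Slc6a9*, *Tspan3*, *Lcat*, *Jun* and *Pdlim4*. All 8 were under 50 CPM in C57BL/6 and met the limit on the mean through *Nav1* KO, so their ranks follow from the limit in part. *Tspan3*, a tetraspanin, was at 46.7, 155 and 136 CPM. The 8 lowest were *Pde10a*, *Adcy5*, *Erc2*, *Fbxl20*, *Xpo6*, *Usp33*, *Lrrc7* and *Penk*, of which *Erc2* and *Lrrc7* encode synaptic scaffolds. *Erc2* was at 133, 51.5 and 62.5 CPM, 0.388 times (0.258–0.584) in *Nav1* KO and 0.694 times (0.209–2.64) over the astrocyte-led nuclei. *Usp33*, a deubiquitinase, was at 103, 41.9 and 51.6 CPM, 0.406 times (0.256–0.643), and 0.315 times (0.159–0.616) over the astrocyte-led nuclei. The wide *Erc2* interval holds both 1 and the ratio over all chosen nuclei.

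*Nav1* itself was at 157, 97.7 and 59.8 CPM in the chosen nuclei. *Nav1* KO was at 0.621 times (0.446–0.869) and BTBR at 0.380 times (0.253–0.567) C57BL/6, and in the other nuclei the levels were 347, 267 and 147 CPM. C57BL/6 was highest in both sets of nuclei. The libraries count the 3' ends of transcripts, and the deletion lies in the first exon, so these counts do not check it. *Ddx3y* on the Y chromosome was at 106, 103 and 107 CPM, and *Xist* was at 2.46 CPM in C57BL/6 and had no count in the other 2, which allows up to 3.22 and 4.08 CPM. The labels give male mice for all 3.

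*Glyctk*, glycerate kinase, had the highest ratio of BTBR over *Nav1* KO and was at 24.6, 13.9 and 189 CPM. It was under 50 CPM in C57BL/6 and *Nav1* KO and met the limit on the mean through BTBR, so its rank follows from the limit in part. BTBR was at 7.69 times (4.06–16.4) C57BL/6 and 13.5 times (7.66–26.1) *Nav1* KO, and the other nuclei differed in the same direction, with 2.56, 1.94 and 14.8 CPM. *Col16a1*, a collagen, was at 27.0, 35.4 and 92.4 CPM, 3.42 times (1.80–7.17) C57BL/6, while in the other nuclei it was lowest in BTBR, at 42.3, 45.7 and 21.8 CPM. *Sav1*, a scaffold of the Hippo pathway, was at 29.5, 40.8 and 106 CPM, 3.596 times (1.95–7.26), and 8.77 times in the other nuclei. *Scg5*, a chaperone of secretory granules, was at 46.7, 91.2 and 166 CPM, lowest in C57BL/6 and highest in BTBR. It had 4 counts in the astrocyte-led nuclei of C57BL/6. *Col16a1*, *Sav1* and *Scg5* were also under 50 CPM in C57BL/6 and met that limit through BTBR.

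*C1qa*, a complement gene of microglia, had the highest ratio of BTBR over C57BL/6. It was at 12.3, 25.8 and 126 CPM, 10.3 times (4.25–32.4) C57BL/6. It was under 50 CPM in C57BL/6 and met the limit on the mean through BTBR, so its rank follows from the limit in part. The microglia list summed to 56.5, 148 and 609.9 CPM. Over the astrocyte-led nuclei *C1qa* was at 5.28, 4.07 and 10.8 CPM and the list at 37.0, 59.0 and 65.0 CPM, so most of the difference lay in the 54 nuclei of sub-cluster 4.

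On the other side, *Ccdc59* was at 98.2, 89.1 and 17.7 CPM, with BTBR at 0.180 times (0.0882–0.343) C57BL/6, and 0.356 times in the other nuclei. *Ivd*, an enzyme of leucine breakdown, was at 139.9, 134 and 38.0 CPM, at 0.272 times (0.166–0.434), and 0.227 times (0.125–0.397) over the astrocyte-led nuclei. *Ddo*, which oxidizes D-aspartate, was at 118, 129 and 34.0 CPM, at 0.288 times (0.170–0.477), against 0.895 times in the other nuclei. In each of these genes the C57BL/6 and *Nav1* KO intervals overlapped and BTBR lay below both. BTBR was under 50 CPM in each, so they met the limit on the mean through C57BL/6. *Mro* (78.6, 97.7 and 28.5 CPM), *Pigk*, *Cog5* and *Galnt1* were also among the 8 lowest. *Sst*, the interneuron peptide somatostatin, was at 216, 119 and 31.2 CPM, but single nuclei held 63 of its UMIs in C57BL/6 and 97 in *Nav1* KO, and the ratio of BTBR to *Nav1* KO turned from 0.262 (0.1597–0.414) to 1.92 (0.760–5.09) over the astrocyte-led nuclei.

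**Figure D5:**
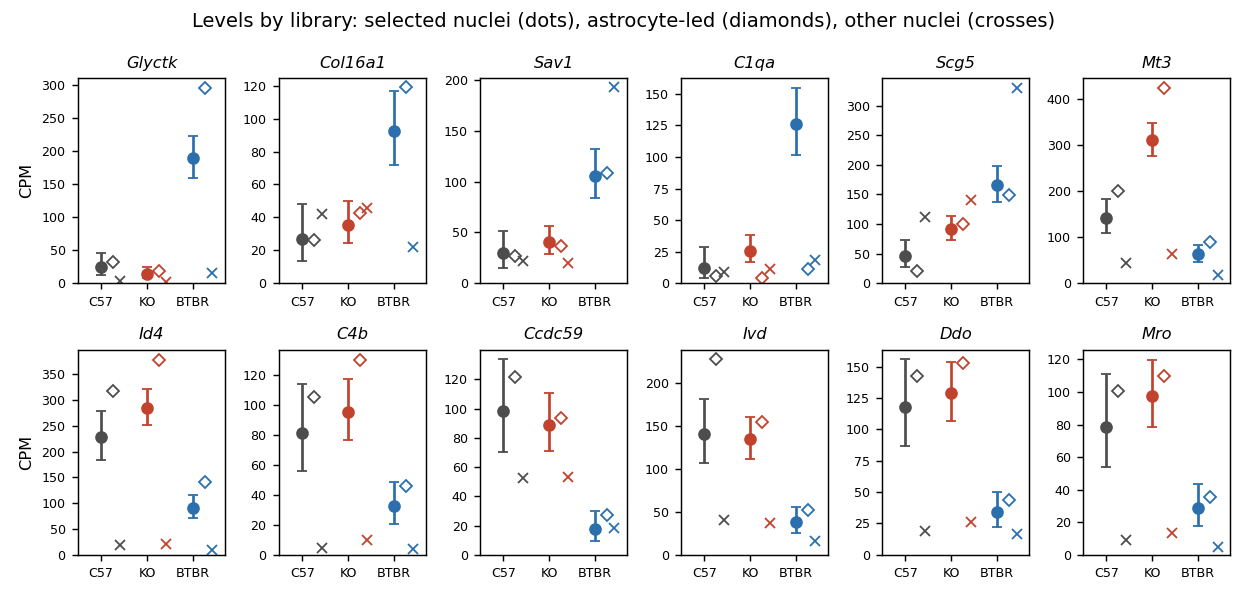
Level (y axis, CPM, a scale of its own in each panel) of 12 genes among those that differed in BTBR, in the 3 libraries (x axis). Dots with exact 95% Poisson intervals are all chosen nuclei, diamonds the astrocyte-led nuclei and crosses all other nuclei; *Glyctk* is at 189 CPM in BTBR against 24.6 and 13.9 CPM, and the *C1qa* diamonds (5.28, 4.07 and 10.8 CPM) lie far below the BTBR dot at 126 CPM.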

How the data were processed

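Values are whole UMI counts by gene and nucleus, which the authors deposited as 1 filtered matrix per library (3 in all), made per the labels with Cell Ranger 6.0.0 and the mm10 reference, to which BTBR reads were also aligned. Every nucleus passing the filters and the marker rule of the opening was used. Each gene was summed across the chosen nuclei of 1 library and scaled to all their counts (CPM), with exact Poisson intervals for levels, Clopper-Pearson intervals for shares and binomial splits for ratios, all at 95%. A count of 0 was given the limit of 3 counts. Oligodendrocyte nuclei had at least 2 UMIs of *Mog* and *Mag* and none of the 4 astrocyte markers and the 3 neuronal genes. For sub-clusters, counts were scaled to 10000 per nucleus and log transformed, 2000 variable genes gave 10 principal components, and 20 neighbors and Leiden clustering at resolution 0.3 followed. Doublets were scored with Scrublet at an expected 10%. Its threshold called 2 nuclei, so none was removed, and leaving out the top 10% of scores was an alternative.

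Genes were named by a rule: the 10 genes of the marker rule, label checks, in each role list the 4 most abundant members and all past 1.5-fold, the 15 highest and 8 lowest over other nuclei, the 8 highest and 8 lowest ratios of each comparison, and 5 per sub-cluster. Not all are described, and a few are withheld and not reported here. The members and the lists were chosen with earlier results of these data known. *Nnt* appears under 2 identifiers, and neither was set apart here. Alternatives were other marker, CPM and mitochondrial limits, other scaling, no neuronal limit, Scrublet scores, depth, and subsets of the nuclei. Steps were tested on simulated data. Python 3.11.15, numpy 2.4.6, scipy 1.17.1, pandas 2.3.3, scanpy 1.11.5 and igraph 0.11.9 were used.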

Additional observations from a re-analysis of the deposited data

Results flagged for a closer look

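Some genes were past 1.5-fold in the chosen nuclei in one direction and, in all other nuclei of the same libraries, past it in the other. With 1 library per group these differences between sets of nuclei were not tested. In *Nav1* KO over C57BL/6 this was so for *Slc47a1*, a gene of the fibroblast list, at 0.630 times (52.6 against 83.5 CPM). In BTBR over C57BL/6 *Col16a1* was at 3.42 times, against 0.514 times in the other nuclei. *Fmo1*, a monooxygenase, was at 0.424 times (31.2 against 73.7 CPM), *Nacc2* at 0.599 times, *Nr2f2* at 0.630 times, *Abhd14b* at 0.626 times and *Tst*, a sulfurtransferase of mitochondria, at 0.660 times. In BTBR over *Nav1* KO *Col16a1* was at 2.61 times, *1500015A07Rik* at 0.551 times and the myelin gene *Mbp* at 0.655 times. *Slc47a1* and *Nr2f2* each had 1 count in the astrocyte-led nuclei of C57BL/6, and 3 counts would be 15.8 CPM there.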

How the results depend on the processing

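With 1 pool per library, intervals cover counting error only, and low depth in C57BL/6 limits genes under about 50 CPM. In order C57BL/6, *Nav1* KO and BTBR, the share of nuclei was 0.731%, 1.90% and 1.46% with at least 5 marker UMIs, 2.60%, 6.23% and 5.70% with no limit on neuronal genes, 0.940%, 2.52% and 1.97% after thinning, 0.936%, 2.01% and 1.43% in the astrocyte-led nuclei, and 0.936%, 2.17% and 1.68% with a UMI of *Aqp4* or *Slc7a10* required. The order of the libraries was the same in all of these. The 142 genes 4-fold above the other nuclei became 260 at a limit of 2-fold, 54 with no neuronal limit, 74 at 100 CPM and 224 with no CPM limit. The genes past 1.5-fold became, for *Nav1* KO over C57BL/6 (581), 291 with no neuronal limit, 183 at 100 CPM and 4510 with no limit and 5 CPM added, for BTBR over C57BL/6 (607), 179 and 5193 at the last 2, and for BTBR over *Nav1* KO (386), 147, 105 and 3507, and 595 by means per nucleus. The sub-clusters fell from 5 to 3 with 20 principal components. Of 130 ratios past 1.5-fold that were recomputed under each setting, those that turned were *Sst* in BTBR over *Nav1* KO (1.94 with at least 5 marker UMIs, 2.29 under 5% mitochondrial counts and 1.92 in the astrocyte-led nuclei), *Aldoc* in *Nav1* KO over C57BL/6 (0.952) and *Mlc1* and *Tjp1* in BTBR over C57BL/6 (0.995 and 0.972) with no neuronal limit. In the astrocyte-led nuclei *Grm5*, *Id1* and *Penk* turned in *Nav1* KO over C57BL/6 (1.11, 0.892 and 1.08) and *Grm5* in BTBR over C57BL/6 (1.06). With *Aqp4* or *Slc7a10* required, *Tgfbr1* was at 0.996 in BTBR over C57BL/6. Of these ratios, 90 to 130 moved by less than their intervals under each setting, and 110 of 129 in the astrocyte-led nuclei. The cause of these moves was not tested. No paired analysis was possible because each group has 1 library.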
